A study of Mus musculus with 11 samples.

Results

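Transcripts of 10 genes of glucose uptake, glycolysis and the hypoxia response were measured in mouse embryonic stem cells (ESCs) treated with siRNAs against the cap methyltransferase CMTR1. The 10 genes, Slc2a1, Slc2a3, Hk2, Aldoa, Gapdh, Pgk1, Pkm, Ldha, Pdk1 and Bnip3, were taken by symbol from the count files, after the Ensembl identifiers had been matched to the mouse annotation of GRCm38. They are 10 of 54838 genes counted, and all 10 are among the 16073 genes that were tested, which had more than 1 CPM (a count scaled to the counted reads of its library) in at least 4 libraries.

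CMTR1 adds a methyl group to the ribose of the first transcribed nucleotide of an mRNA, next to the cap. E14 cells, a single established mouse ESC line grown with the cytokine LIF and knockout serum replacement, received a control scramble siRNA (3 libraries), CMTR1 siRNA 1 (4 libraries) or CMTR1 siRNA 2 (4 libraries). Total RNA was taken 36 h later, depleted of ribosomal RNA and made into strand-specific libraries. The comparisons below ask which of these transcripts differed from control with each siRNA, and whether the siRNAs differed from each other.

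Glycolysis converts glucose to pyruvate in the cytosol, and cells that ferment turn much of that pyruvate into lactate instead of oxidising it in mitochondria. When oxygen is low, HIF1A and EPAS1 escape hydroxylation and destruction, pair with ARNT and bind short sequences with the core ACGTG or GCGTG, and many glycolytic genes are among their targets. Cultured mouse ESCs are known for active glycolysis, and all samples here came from cells of the same line in the same medium, with no low-oxygen arm.

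Counted reads ranged from 6738478 to 8382318 per library, and the 10 genes together took 0.473% to 0.523% of them. Cmtr1, the targeted gene, had 21.3, 21.7 and 17.9 CPM in the control libraries, 21.1, 21.3, 16.2 and 18.0 CPM with siRNA 1 and 15.6, 16.8, 16.4 and 19.5 CPM with siRNA 2. Its log2 fold change was -0.09 with siRNA 1 (95% interval -0.29 to 0.12, adjusted p = 0.743) and -0.25 with siRNA 2 (95% interval -0.46 to -0.04, adjusted p = 0.144), so the RNA counts did not pass the test for either siRNA. Of the exon bases of Cmtr1, 36.3% overlap other genes of the same strand, Gm28043 and Gm28052, so reads there may have been left uncounted. All 7 ESC markers were detected, and their summed level was 1603 to 1738 CPM in control, 1408 to 1539 CPM with siRNA 1 and 1453 to 1519 CPM with siRNA 2. By edgeR's quasi-likelihood test, 5 of the 7 ESC markers were called lower with siRNA 1 and 3 of the 7 with siRNA 2. Of all genes tested, 1.97% and 3.55% were called lower. Among the 5 ESC markers that fell with siRNA 1 were Nanog, Zfp42 and Esrrb, which also fell with siRNA 2. DESeq2 did not call Zfp42 with siRNA 1. Fibroblast markers summed to 23.3 to 27.8 CPM in control, 24.7 to 28.5 CPM with siRNA 1 and 34.2 to 39.0 CPM with siRNA 2, Postn having no read in any siRNA library and Lum none in control. Within that list Col1a1 and Dcn rose with siRNA 2 (log2 fold changes 0.75 and 1.13, adjusted p = 6.42e-05 and 0.00209), while Col3a1 fell (-1.42, adjusted p = 0.0180), a call that was lost with DESeq2 (0.0910) and without control replicate 1 (0.136) or siRNA 2 replicate 2 (0.0525) or 4 (0.0712). Primitive endoderm markers summed to 50.5 to 72.2 CPM and the other lineage markers to 77.8 to 97.9 CPM over the 11 libraries, with overlapping groups. These sums hide opposite differences in siRNA 2 against siRNA 1, where Pax6 was lower by 0.68 on the log2 scale (-0.68, adjusted p = 0.000312) and Krt8 higher (0.38, adjusted p = 0.0139), the latter not called by DESeq2 (0.0545) or without siRNA 1 replicate 1 (0.0567) or 2 (0.0584). The part of these marker differences in the results below was not tested. In a bulk sample, fewer cells of a type and less RNA per cell cannot be told apart.

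The sequence upstream of 3 of the genes is shown because it holds, or lacks, the ACGTG form of the HIF core in a gene whose RNA was measured. These are the 250 bases before the first RefSeq start of each gene on GRCm38.p6, written 5′ to 3′ on the strand of the gene, with capitals marking ACGTG or, on the other strand, CACGT.
Pgk1 (chrX:106186850-106187099, plus strand): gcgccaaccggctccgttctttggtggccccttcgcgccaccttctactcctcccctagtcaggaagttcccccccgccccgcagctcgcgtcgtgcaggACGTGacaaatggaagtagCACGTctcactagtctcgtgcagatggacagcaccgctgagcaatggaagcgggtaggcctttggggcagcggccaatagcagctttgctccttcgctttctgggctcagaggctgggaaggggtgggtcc
Ldha (chr7:46845554-46845803, plus strand): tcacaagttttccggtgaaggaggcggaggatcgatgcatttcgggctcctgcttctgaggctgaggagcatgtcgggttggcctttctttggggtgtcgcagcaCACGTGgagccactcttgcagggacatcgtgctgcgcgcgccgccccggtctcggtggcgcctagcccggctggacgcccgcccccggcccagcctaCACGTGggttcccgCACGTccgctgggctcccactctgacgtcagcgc
Pdk1 (chr2:71872974-71873223, plus strand): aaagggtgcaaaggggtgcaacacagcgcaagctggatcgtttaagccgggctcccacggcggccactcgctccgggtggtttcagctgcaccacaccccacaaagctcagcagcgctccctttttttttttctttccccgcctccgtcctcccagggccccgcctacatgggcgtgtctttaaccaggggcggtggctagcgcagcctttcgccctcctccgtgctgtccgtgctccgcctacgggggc
Pgk1 has the core at 150 bases before its start on its own strand and at 131 bases before on the other strand. Ldha has it at 3 places, 2 of which read CACGTG and so match on both strands. Pdk1 has no ACGTG in these letters, but has the other form, GCGTG, at 78 bases before its start, left in lower case.

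ACGTG was searched on both strands in windows from 250 bases before to 50 bases after each RefSeq start, and 19.6% of the 32851 windows of the genome-wide table held it. Of the 10 genes, 9 had a window and 8 of these held ACGTG in at least 1 window; over their 14 windows, 9 held it. Slc2a3 had no window in the table. The variant GCGTG was found in 32.4% of all windows, among them the Pdk1 window, where it lies 78 and 2 bases before the start. A match describes the letters of the window and not the binding of a factor.

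The 10 genes covered a wide range of RNA levels in control cells. Per kilobase of annotated exon, the control means were 284 CPM for Pkm, the last enzyme of glycolysis, 279 CPM for Gapdh, which oxidises glyceraldehyde-3-phosphate, and 227 CPM for Aldoa, which splits fructose-1,6-bisphosphate. The glucose transporter Slc2a1 followed at 115 CPM per kilobase and Ldha, the lactate dehydrogenase subunit that predominates in fermenting cells, at 105 CPM per kilobase. Next on this scale were Slc2a3, the high-affinity glucose transporter, at 68.0, the hexokinase Hk2 at 61.7 and the phosphoglycerate kinase Pgk1 at 56.6 CPM per kilobase. Pdk1, a kinase that switches off pyruvate dehydrogenase, had 23.9 CPM per kilobase, and Bnip3, a mitochondrial protein of mitophagy and cell death, had 6.30 CPM per kilobase. Pkm, Gapdh and Aldoa were above the 99th percentile of the tested genes with a length (percentiles 99.5, 99.5 and 99.3), Pdk1 was at percentile 86.4 and Bnip3 at 57.1. Control libraries overlapped between these neighbours in the order: Slc2a1 and Ldha, and Hk2 and Pgk1. Pkm and Gapdh, and Slc2a3 and Hk2, were separate in control and overlapped only over all 11 libraries. With the longest transcript as the length in place of the exon union, Aldoa passed Gapdh, Ldha passed Slc2a1 and Pgk1 passed Hk2.

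**Figure D1:**
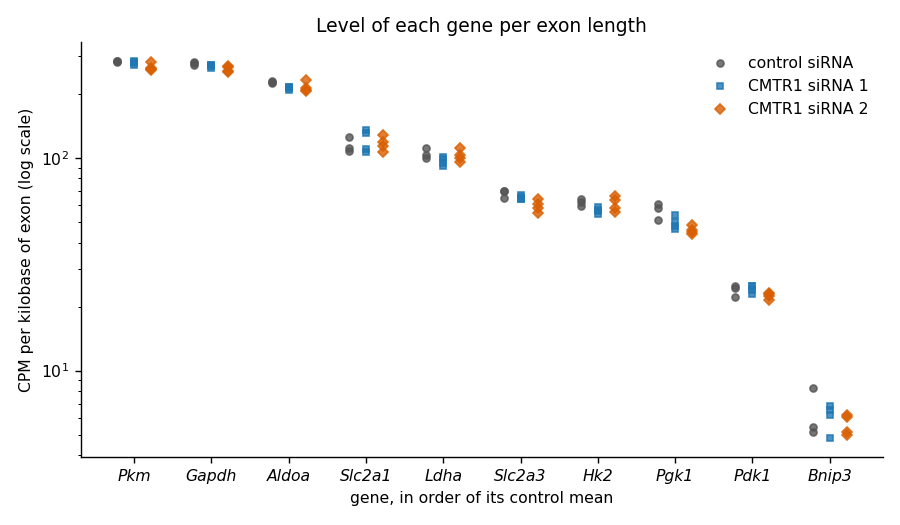
CPM per kilobase of exon (vertical, log scale) of the 10 genes in each of 3 control, 4 CMTR1 siRNA 1 and 4 CMTR1 siRNA 2 libraries, 1 point a library, ordered by the control mean. The genes run from 284 for Pkm to 6.30 for Bnip3 in control, and the groups of each gene lie close together against that range.

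Related genes of the same step differed strongly in level. Among hexokinases, Hk2 had 61.7 ± 2.43 CPM per kilobase (SD, n = 3 control libraries), Hk1 3.41 ± 0.431, and Hk3 was under 0.1 CPM per kilobase on average. Aldoa stood at 227 CPM per kilobase against 1.11 for Aldoc. Pklr, the liver and red-cell pyruvate kinase, had 0.169 CPM per kilobase beside the 284 of Pkm, and the testis genes Pgk2 and Gapdhs had 0 and 2 reads over all libraries. Lactate dehydrogenase was shared more evenly, with 105 ± 5.69 CPM per kilobase for Ldha and 78.5 ± 9.66 for Ldhb, whose product favours lactate oxidation. This comparison depends on the length used. The exon union and the longest transcript have 3310 and 1815 bases for Ldha, but 1570 and 1304 for Ldhb. Among the pyruvate dehydrogenase kinases Pdk1 was highest at 23.9, followed by Pdk3 at 11.5, Pdk2 at 1.19 and Pdk4 at 0.932 CPM per kilobase. Bnip3 was the lower member of its pair, at 6.30 ± 1.73 against 13.6 ± 1.27 CPM per kilobase for Bnip3l. The limit from shared words given above for Bnip3 applies here too.

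Following siRNA 1, 1 of the 10 genes passed the test, Pgk1, and it fell. Following siRNA 2, 2 of the 10 passed, Pgk1 and Slc2a3, and both fell. DESeq2 called 4 of the 10 lower with siRNA 2, adding Gapdh and Pkm, among 874 genes it called in all. Over all 16073 genes tested by edgeR's quasi-likelihood test at an adjusted p of 0.05, 4.67% were called with siRNA 1 and 9.72% with siRNA 2, and 1.97% and 3.55% were called lower. With the mean of both siRNAs against control, the same 2 genes were called lower, against 2.72% of all genes. DESeq2 also called Aldoa there (adjusted p = 0.0485, and 0.144 by edgeR), as did the fit without siRNA 2 replicate 2 (0.0460).

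The estimates of the 10 genes lay mostly below 0. With siRNA 1, 8 of 10 log2 fold changes were negative and their median was -0.06, against 43.2% negative and a median of 0.02 over all genes tested. With siRNA 2, 9 of 10 were negative and the median was -0.09, against 42.9% and 0.03. With TMM factors these counts were 9 and 10 of 10 and the medians -0.08 and -0.11, and DESeq2 also gave 9 and 10 of 10. Both comparisons use the same 3 control libraries, so they are not independent. The sizes were small: the 10 estimates ran from -0.19 to 0.07 with siRNA 1 and from -0.31 to 0.02 with siRNA 2. In 3 of the 10 genes every siRNA 1 library was below every control library (Hk2, Aldoa and Gapdh), and in 4 of 10 this held for siRNA 2 (Slc2a3, Gapdh, Pgk1 and Pkm). Of all genes tested, 6.23% and 6.99% had every library of the siRNA below every control library.

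**Figure D2:**
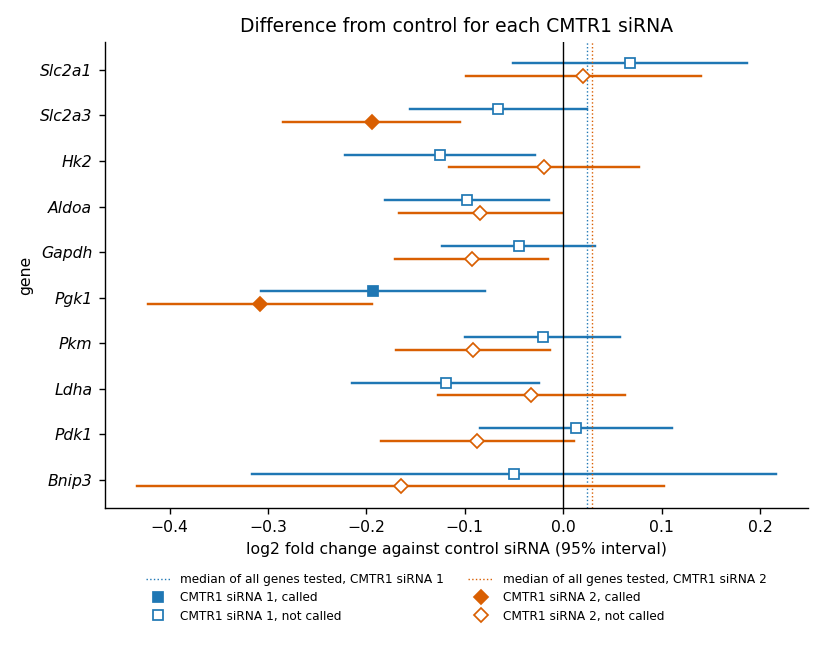
Log2 fold change against control siRNA (horizontal) of each gene for CMTR1 siRNA 1 (squares) and CMTR1 siRNA 2 (diamonds), with 95% intervals; filled symbols passed the test at an adjusted p of 0.05 and dotted lines mark the median of all genes tested (0.02 and 0.03). Filled symbols are Pgk1 for both siRNAs and Slc2a3 for siRNA 2, and the Bnip3 intervals are the widest.

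Pgk1 makes the first ATP of glycolysis by taking a phosphate from 1,3-bisphosphoglycerate. Its gene (ENSMUSG00000062070) lies on chrX:106187100-106203699, plus strand, in GRCm38, just after the upstream sequence printed above. Pgk1 had 136, 130.0 and 115 CPM in the control libraries, 108, 112, 121 and 104 CPM with siRNA 1, and 103, 108, 98.3 and 101 CPM with siRNA 2. All siRNA 2 libraries were below the lowest control library, while siRNA 1 replicate 3 was above it. The mean fell from 127 ± 11.02 CPM (SD, n = 3) to 111 ± 7.19 CPM with siRNA 1 and 103 ± 4.23 CPM with siRNA 2 (n = 4 each). On the log2 scale siRNA 1 gave -0.19 ± 0.06 (SE) for Pgk1, with a 95% interval of -0.31 to -0.08 and an adjusted p of 0.0411, so that the RNA fell by 12.5%. The estimate with siRNA 2 was -0.31 ± 0.06, with an interval of -0.42 to -0.19 and an adjusted p of 0.00031, and the RNA fell by 19.2%. The siRNA 2 call held with each of the 11 libraries left out in turn, the largest adjusted p being 0.00899. The siRNA 1 call did not: the adjusted p was 0.259 without control replicate 1, 0.188 without control replicate 2, 0.105 without siRNA 1 replicate 1, 0.0971 without siRNA 1 replicate 2 and 0.148 without siRNA 1 replicate 4. With the replicate number as a block it was 0.0873. Of the 75-base words of Pgk1 transcripts, the length of a read, 52.8% also occur in another gene, mainly the processed pseudogene Pgk1-rs7, which itself had 0 to 0.142 CPM. Reads that match both places equally are dropped where multiple alignments are not counted, so the Pgk1 count may rest on the rest of the transcript.

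Slc2a1 and Slc2a3 encode GLUT1 and GLUT3, the transporters that carry glucose across the plasma membrane. Slc2a3 (ENSMUSG00000003153, chr6:122727809-122801640, minus strand) had 503, 471 and 505 CPM in control, 464, 463, 484 and 472 CPM with siRNA 1, and 397, 421, 466 and 439 CPM with siRNA 2. The siRNA 2 libraries were all below control, with replicate 3 only just so, and the siRNA 1 libraries overlapped control. Slc2a3 fell by 12.6% with siRNA 2, a log2 fold change of -0.19 ± 0.05 (SE) with a 95% interval of -0.28 to -0.10 and an adjusted p of 0.00376, and the call held with each library left out in turn (largest adjusted p = 0.0386). With siRNA 1 it was -0.07 (95% interval -0.16 to 0.02, adjusted p = 0.504). For the mean of both siRNAs Slc2a3 fell by 0.13 on the log2 scale (adjusted p = 0.0400). That call was lost without control replicate 1 (adjusted p = 0.173), control replicate 3 (0.221), siRNA 1 replicate 2 (0.0784), siRNA 1 replicate 4 (0.0585), siRNA 2 replicate 1 (0.0921) or siRNA 2 replicate 2 (0.0551).

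Slc2a1 (chr4:119108711-119137983, plus strand) had 439, 379 and 391 CPM in control, 471, 459, 386 and 374 CPM with siRNA 1 and 417, 449, 397 and 373 CPM with siRNA 2. Libraries of the 3 groups overlapped, and the spread within siRNA 1 reached 11.7% of its mean. Estimates for Slc2a1 were 0.07 with siRNA 1 (95% interval -0.05 to 0.19, adjusted p = 0.631) and 0.02 with siRNA 2 (95% interval -0.10 to 0.14, adjusted p = 0.886). Slc2a1 was thus the 1 gene of the 10 with a positive estimate for both siRNAs, although its siRNA 2 estimate turned to -0.004 with TMM factors.

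**Figure D3:**
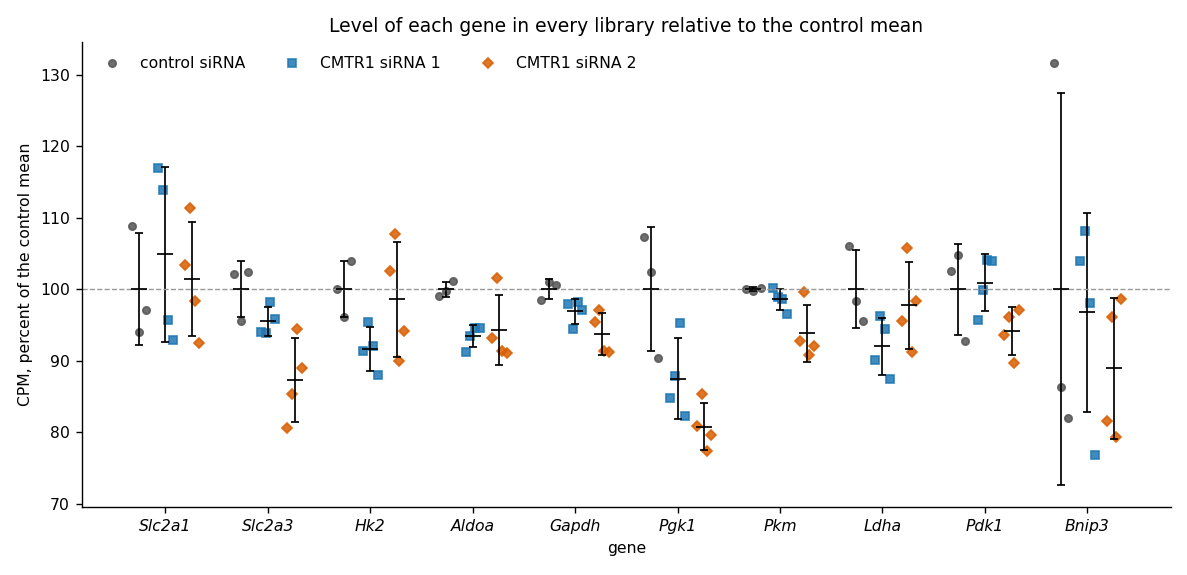
CPM of each gene in every library as a percentage of that gene's control mean (dashed line at 100), with group means and SD (bars) for control (circles, n = 3), CMTR1 siRNA 1 (squares, n = 4) and CMTR1 siRNA 2 (diamonds, n = 4). Pgk1 sits at 77.4% to 85.3% of its control mean in the siRNA 2 libraries and Slc2a3 at 80.5% to 94.5%, while the Bnip3 control libraries alone run from 82.0% to 132%.

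Hk2 traps glucose in the cell by phosphorylating it. It had 368, 354 and 383 CPM in control, 337, 352, 339 and 324 CPM with siRNA 1, and 378, 397, 332 and 347 CPM with siRNA 2. Every siRNA 1 library was below control and the siRNA 2 libraries fell on both sides of it. On the log2 scale Hk2 differed from control by -0.13 with siRNA 1 (95% interval -0.22 to -0.03, adjusted p = 0.154) and -0.02 with siRNA 2 (95% interval -0.12 to 0.08, adjusted p = 0.861).

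Aldoa and Gapdh act in the middle of the pathway. Aldoa had 656, 660.2 and 670 CPM in control, 604, 619, 626 and 626 CPM with siRNA 1, and 617, 672, 605 and 603 CPM with siRNA 2. Its siRNA 1 libraries were all below control, and siRNA 2 replicate 2 was above every control library. For Aldoa the log2 fold change was -0.10 with siRNA 1 (95% interval -0.18 to -0.01, adjusted p = 0.210) and -0.08 with siRNA 2 (95% interval -0.17 to -0.001, adjusted p = 0.221). A second identifier with the symbol Aldoa, ENSMUSG00000114515, had 2.35 to 4.36 CPM and is not included. Gapdh had 1133, 1162 and 1158 CPM in control, 1128, 1087, 1131 and 1117 CPM with siRNA 1, and 1099, 1117, 1052 and 1050 CPM with siRNA 2. All 8 libraries of the CMTR1 siRNAs were below the lowest control library. Its log2 fold change was -0.04 with siRNA 1 (95% interval -0.12 to 0.03, adjusted p = 0.626) and -0.09 with siRNA 2 (95% interval -0.17 to -0.02, adjusted p = 0.138). Gapdh, a common reference gene in such cells, thus did not pass the edgeR test, but DESeq2 called it lower with siRNA 2. Of its 75-base words, 22.6% occur in other genes, mostly processed pseudogenes such as Gm7336.

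Pkm makes pyruvate and its second ATP, Ldha reduces pyruvate to lactate, and Pdk1 keeps pyruvate out of the citric acid cycle. Pkm had 1421, 1417 and 1424 CPM in control, 1423, 1406, 1401 and 1372 CPM with siRNA 1, and 1318, 1416, 1290 and 1308 CPM with siRNA 2. Control libraries of Pkm differed by 0.249% of their mean (SD), and the siRNA 2 libraries were all lower, replicate 2 by the least. For Pkm the log2 fold change was -0.02 with siRNA 1 (95% interval -0.10 to 0.06, adjusted p = 0.854) and -0.09 with siRNA 2 (95% interval -0.17 to -0.01, adjusted p = 0.146). Without siRNA 2 replicate 2 the siRNA 2 estimate was -0.12 with an adjusted p of 0.0435. DESeq2 called Pkm lower with siRNA 2 with all libraries kept. The transcript Gm49759 overlaps 15.3% of the exon bases of Pkm on the same strand and had 75.5 to 99.2 CPM, so part of the reads of this locus may be split between them.

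Ldha had 368, 341 and 332 CPM in control, 312, 334, 327 and 303 CPM with siRNA 1, and 331, 367, 316 and 341 CPM with siRNA 2. Both siRNA groups overlapped control. Its log2 fold change was -0.12 with siRNA 1 (95% interval -0.21 to -0.02, adjusted p = 0.171) and -0.03 with siRNA 2 (95% interval -0.13 to 0.06, adjusted p = 0.745). Pdk1 had 191, 195 and 172 CPM in control, 178, 186, 194 and 193 CPM with siRNA 1, and 174, 179, 167 and 181 CPM with siRNA 2. The 3 groups overlapped, and the log2 fold change of Pdk1 was 0.01 with siRNA 1 (95% interval -0.09 to 0.11, adjusted p = 0.937) and -0.09 with siRNA 2 (95% interval -0.19 to 0.01, adjusted p = 0.296).

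Bnip3 is a widely used hypoxia marker and had the fewest reads of the 10. Its levels were 18.8, 12.3 and 11.7 CPM in control, 14.8, 15.4, 14.0 and 10.96 CPM with siRNA 1, and 11.7, 13.7, 11.3 and 14.1 CPM with siRNA 2. Control replicate 1 was higher than the 10 other libraries, and the groups overlapped. Estimates for Bnip3 were -0.05 with siRNA 1 (95% interval -0.32 to 0.22, adjusted p = 0.904) and -0.17 with siRNA 2 (95% interval -0.43 to 0.10, adjusted p = 0.5). Without control replicate 1 these estimates were 0.20 and 0.08, so both changed sign. The siRNA 1 estimate also changed sign without siRNA 1 replicate 4 (0.0468). The control libraries of Bnip3 had an SD of 27.5% of their mean. Another 34.4% of the 75-base words of Bnip3 occur elsewhere, and 22.3% of its exon bases lie opposite Gm45507 on the other strand.

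Direct comparison of the siRNAs gave no call among the 10 genes. In siRNA 2 against siRNA 1, edgeR's quasi-likelihood test called 0 of 10, against 7.44% of all genes. Its unadjusted p was under 0.05 for 4 of 10, and for 3395 of all 16073 genes tested. DESeq2 and edgeR's exactTest also called 0, and the test with TMM factors called 1, Slc2a3. Slc2a3 came nearest, with a log2 difference of -0.13 (95% interval -0.21 to -0.04, adjusted p = 0.0549), lower with siRNA 2. For Pgk1 the difference was -0.11 (95% interval -0.22 to -0.01, adjusted p = 0.216). For Hk2 it was 0.11 (95% interval 0.02 to 0.20, adjusted p = 0.164), higher with siRNA 2. Pgk1 and Slc2a3 were lowest with siRNA 2, then siRNA 1, then control, and the intervals leave differences between the siRNAs of up to 14.3% for Pgk1 and 13.7% for Slc2a3.

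The libraries of siRNA 2 did not vary evenly. Replicate 2 was the highest of its group for 7 of the 10 genes (Slc2a1, Hk2, Aldoa, Gapdh, Pgk1, Pkm and Ldha), and the 10 genes summed to 5141 CPM there. In the other siRNA 2 libraries the sum was 4733, 4755 and 4844 CPM. With siRNA 1 the sums were 4897 to 5039 CPM and in control 5121 to 5234 CPM. The siRNA 1 sums were thus below control, and so were those of siRNA 2 except replicate 2, which was within the control range.

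Other genes of glucose use were counted from lists written with the 10 genes. Of 34 further genes of glucose uptake and glycolysis, 26 were tested. With siRNA 1, 1 was called lower and 0 higher, and with siRNA 2, 3 were called lower and 1 higher. Over all genes tested, 4.67% and 9.72% were called in either direction. Median log2 fold changes of the 26 genes were -0.04 and -0.09, beside -0.06 and -0.09 for the 10 genes and 0.02 and 0.03 for all genes. Pfkp, the platelet-type phosphofructokinase, which catalyses the committed step above aldolase, fell with both siRNAs. It had 105, 108 and 105 CPM in control, 74.4, 84.4, 86.9 and 89.4 CPM with siRNA 1, and 74.3, 79.2, 98.6 and 89.8 CPM with siRNA 2. All 8 siRNA libraries were below control, by 0.34 on the log2 scale on average with siRNA 1 (log2 fold change -0.34, adjusted p = 0.000982) and 0.31 with siRNA 2 (-0.31, adjusted p = 0.00143). The liver-type Pfkl fell with siRNA 2 (log2 fold change -0.25, adjusted p = 0.00371) and was at -0.08 with siRNA 1 (adjusted p = 0.553). Slc2a8, a further glucose transporter, fell with siRNA 2 (-0.35, adjusted p = 0.0400), a call that DESeq2 did not make, and Eno3, the muscle-type enolase, rose with it (0.40, adjusted p = 0.00523). The abundant enzymes between aldolase and pyruvate kinase did not pass: Tpi1 was at -0.14 and -0.15 for the siRNAs in order, Pgam1 at 0.04 and 0.02, and Eno1 at -0.07 and -0.10, with adjusted p from 0.143 to 0.840. Gpi1, which precedes phosphofructokinase, was at -0.11 and -0.08 (adjusted p = 0.164 and 0.259). Both Pfkp calls and that of Eno3 held with each library left out. Of the enzymes that did not pass, Tpi1 was called lower with siRNA 2 in 2 of these 11 fits (smallest adjusted p = 0.0243). Eno1 was called lower with siRNA 2 in 1 of them (0.0391). The Pfkl call was lost without control replicate 1 (adjusted p = 0.0595), and the Slc2a8 call without control replicate 1 (0.158), control replicate 3 (0.147), or siRNA 2 replicate 1 (0.104), replicate 2 (0.0785) or replicate 4 (0.0546).

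**Figure D4:**
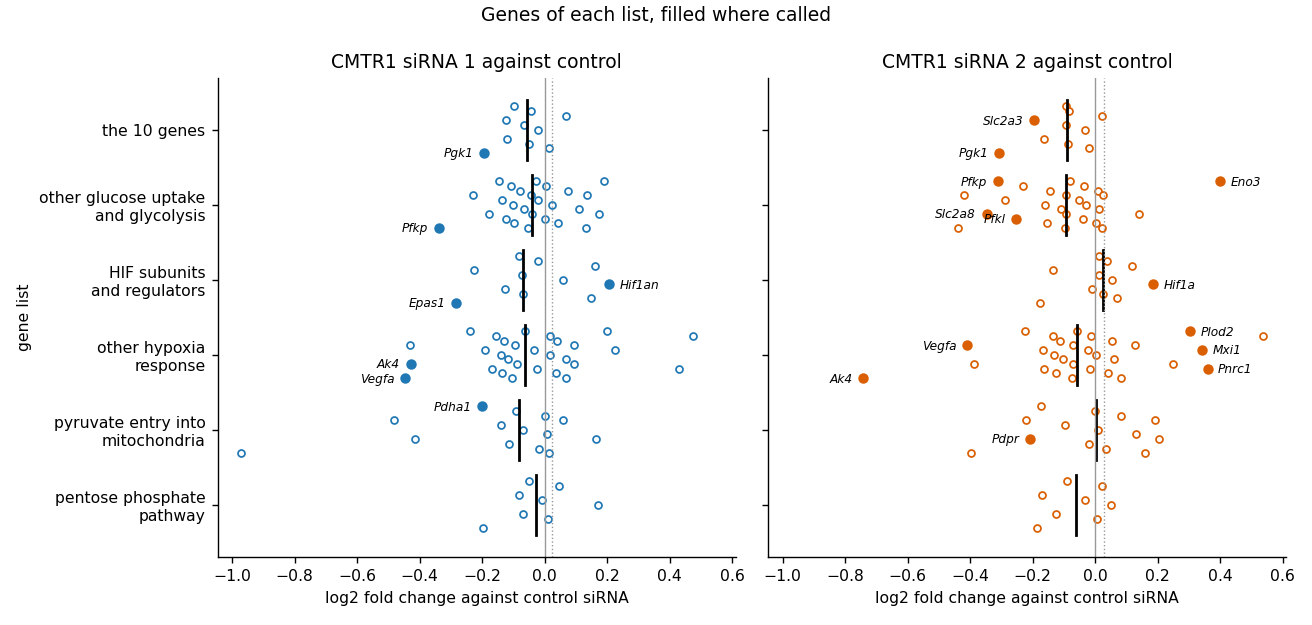
Log2 fold change against control siRNA (horizontal) of each tested gene of the 10 and of 5 further lists, for CMTR1 siRNA 1 (left) and CMTR1 siRNA 2 (right); filled and named points passed the test, black bars are list medians and the dotted line is the median of all genes tested. The medians of both glycolysis lists lie between -0.04 and -0.09, and most points of each list are open.

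Of the oxygen-sensing genes, 2 of 11 passed the test with siRNA 1 and 1 of 11 with siRNA 2. Over all genes tested, 4.67% and 9.72% were called. Of 11 HIF subunits and regulators, 1 fell with siRNA 1, Epas1, which encodes HIF2A, and 1 rose, Hif1an, an asparagine hydroxylase that blunts HIF activity. With siRNA 2, 0 fell and 1 rose, Hif1a. Epas1 had 80.5, 79.1 and 76.8 CPM in control, 66.9, 62.9, 64.2 and 65.2 CPM with siRNA 1, and 86.2, 87.1, 77.9 and 75.9 CPM with siRNA 2. Its log2 fold change was -0.28 with siRNA 1 (adjusted p = 0.00251) and 0.05 with siRNA 2 (adjusted p = 0.640). Hif1a was at -0.13 with siRNA 1 (adjusted p = 0.262) and rose by 0.19 on the log2 scale with siRNA 2 (adjusted p = 0.0336), a call that was lost with TMM factors, with DESeq2 and with a replicate block (adjusted p = 0.0759, 0.182 and 0.0837). It was also lost without control replicate 1, 2 or 3 (0.159, 0.0537 and 0.0858) and without siRNA 2 replicate 1, 2 or 4 (0.0897, 0.0590 and 0.134). Hif1an rose by 0.21 on the log2 scale with siRNA 1 (adjusted p = 0.0173), and was not called by DESeq2 (0.0777) or without control replicate 1 (0.0888), control replicate 2 (0.126) or siRNA 1 replicate 2 (0.0856). In siRNA 2 against siRNA 1, 2 of the 11 were called, beside 7.44% of all genes, and Epas1 was higher by 0.34 and Hif1a by 0.31 on the log2 scale (adjusted p = 7.07e-05 and 0.000128). Arnt, Egln1 and Vhl did not pass the test with either siRNA (adjusted p from 0.251 to 0.969).

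Of 33 other hypoxia-response genes, 29 were tested. With siRNA 1, 2 were called lower, and with siRNA 2, 2 lower and 3 higher. Over all genes tested, 4.67% and 9.72% were called in either direction. Median log2 fold changes of the 29 genes were -0.06 and -0.06. With siRNA 1, DESeq2 and the fit with TMM factors called 4 lower and exactTest 3, adding the histone demethylase Kdm3a (log2 fold change -0.17, adjusted p = 0.0510 in the edgeR test used here) and, except in exactTest, the transferrin receptor Tfrc (-0.14, adjusted p = 0.0812). Ak4, a mitochondrial adenylate kinase, had the largest change with siRNA 2 among the tested genes of this list. It had 47.4, 49.8 and 50.6 CPM in control, 34.0, 34.5, 38.4 and 39.3 CPM with siRNA 1, and 27.0, 24.7, 32.5 and 33.7 CPM with siRNA 2, with no overlap between any of the 3 groups. Ak4 fell with both siRNAs, the log2 fold change being -0.43 with siRNA 1 (adjusted p = 0.000456) and -0.74 with siRNA 2 (adjusted p = 1.83e-08). Vegfa, the angiogenic growth factor, fell from 21.7 to 25.4 CPM in control to 15.2 to 18.4 CPM with siRNA 1 and 14.6 to 20.8 CPM with siRNA 2 (log2 fold changes -0.45 and -0.41, adjusted p = 0.00760 and 0.00854). Plod2, a lysyl hydroxylase of collagen, rose with siRNA 2 (0.30, adjusted p = 0.00611), as did Mxi1, a MYC antagonist (0.34, adjusted p = 0.0257), and the nuclear receptor coactivator Pnrc1 (0.36, adjusted p = 0.00947). DESeq2 called neither Mxi1 nor Pnrc1 (adjusted p = 0.133 and 0.0615). The Ak4 calls held with each library left out. Both Vegfa calls were lost without control replicate 3 (adjusted p = 0.0818 and 0.0842), as were those of Plod2 (0.0899), Mxi1 (0.189) and Pnrc1 (0.0533). Plod2 was also lost without control replicate 2 (0.0988), and Mxi1 without siRNA 2 replicate 2 (0.0779) or replicate 3 (0.0594).

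Downstream of Pkm, 14 genes of pyruvate entry into mitochondria and of the pyruvate dehydrogenase complex were tested. Of all genes tested, 1.97% were called lower with siRNA 1 and 3.55% with siRNA 2. With siRNA 1, 1 was called lower, Pdha1, the catalytic E1 subunit of the complex (log2 fold change -0.20, adjusted p = 0.0216). With siRNA 2, 1 was called lower, Pdpr, a regulatory subunit of the phosphatase of the complex (-0.21, adjusted p = 0.0383), which DESeq2 and the replicate block did not call (adjusted p = 0.0542 and 0.0584). The Pdha1 call was lost without control replicate 1 (0.0575), control replicate 2 (0.158), siRNA 1 replicate 1 (0.141) or siRNA 1 replicate 2 (0.0726). The Pdpr call was lost without control replicate 1, 2 or 3 (0.0960, 0.0571 and 0.162) or siRNA 2 replicate 2 or 4 (0.147 and 0.0624). Pdk4, the kinase related to Pdk1, was at -0.48 and -0.22 with wide intervals (-0.99 to 0.02 and -0.71 to 0.26). Of 8 genes of the pentose phosphate pathway, which branches off before phosphofructokinase, edgeR's quasi-likelihood test called 0 with either siRNA. DESeq2 and exactTest also called 0. In the quasi-likelihood test 1 and 2 of the 8 had an unadjusted p under 0.05, beside 2698 and 3733 of all 16073 genes tested.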

How the data were processed

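The authors deposited counts, whole numbers of reads per Ensembl gene for each library. Per the methods and the submitters' processing notes, cutadapt trimmed the 75-base reads, STAR placed them on GRCm38, Picard removed duplicates and featureCounts counted the rest (versions are not given in the sources used here). Summary lines of 10 files, left out here, list 5314618 to 6998875 reads assigned to no counted feature. They also list 137308 to 164565 reads ambiguous between genes and 787556 to 974693 with several alignments. These lines have the layout of HTSeq-count, so the counter and its settings for strand and multiple alignments are not known. Symbols and exon lengths came from GENCODE M21 on GRCm38 (54809 of 54838 identifiers matched), and upstream sequences from RefSeq (GRCm38.p6).

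Groups were taken from the labels (3 control, 4 CMTR1 siRNA 1 and 4 CMTR1 siRNA 2 libraries). The methods speak of biological replicates, but no source used here ties each library to a separate culture, so p-values measure the spread between these samples, which may be technical. Counting limits the precision of a gene at these depths, and no pair of libraries within a group agreed within sampling noise. Genes with more than 1 CPM in at least 4 libraries (16073) were tested in a single fit over all 11 libraries with edgeR 4.0.16 (R 4.3.3, glmQLFit and glmQLFTest), scaled by total counts. The adjusted p is a Benjamini-Hochberg value over these 16073 genes, with calls made at 0.05. Intervals (95%) span 1.96 SE to either side of the log2 fold change, with the SE derived from the F value of the test. They are slightly narrower than the test implies. For Aldoa with siRNA 2 the interval excludes 0 although the unadjusted p of the quasi-likelihood test was 0.0526. Alternatives were TMM factors (0.986 to 1.01), DESeq2 1.42.0, exactTest, no filter, a filter of 5 CPM, a fit of the groups compared, a replicate block, library sizes without the transcript Gm26917 (4.87% to 6.34% of counts), and each library left out.

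The 10 genes, the other lists and the tests were chosen with earlier results of these data known. Named genes are the 10, Cmtr1, every gene called against control in the other lists except the cell markers (up to 8 a list), 14 fixed genes (Hif1a, Arnt, Egln1, Vhl, Vegfa, Pdha1, Hk1, Eno1, Tpi1, Pgam1, Gpi1, Pfkl, Pfkp and Pdk4) and, for each of the 10, the gene sharing most 75-base words. Related genes of the same step (such as Ldhb and Bnip3l), the cell markers named, Kdm3a, Kdm4b and Tfrc were chosen after their values were seen. The code of the edgeR fit was tested on simulated data. The tables were made with Python 3.11.15.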

Additional observations from a re-analysis of the deposited data

Results flagged for a closer look

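In siRNA 2 against siRNA 1, 9 of the genes named by rule outside the 10 differed by the test of that difference (edgeR's quasi-likelihood test, adjusted p at most 0.05). Lower with siRNA 2 were Pfkl (-0.18 on the log2 scale, adjusted p = 0.0442), Slc2a8 (-0.35, adjusted p = 0.0329), Hk1 (-0.27, adjusted p = 0.0380) and Ak4 (-0.31, adjusted p = 0.0114). Higher with siRNA 2 were Eno3 (0.50, adjusted p = 0.000264), Epas1 (0.34, adjusted p = 7.07e-05), Hif1a (0.31, adjusted p = 0.000128), Pnrc1 (0.29, adjusted p = 0.0304) and Mxi1 (0.37, adjusted p = 0.0116). DESeq2 did not call Pfkl, Slc2a8, Hk1 or Pnrc1 (adjusted p = 0.0812, 0.106, 0.0982 and 0.104). The calls of Eno3, Epas1, Hif1a and Mxi1 held with each library left out. The others did not: the adjusted p reached 0.0834 for Ak4 (lost without siRNA 1 replicate 4 or siRNA 2 replicate 1 or 2), 0.136 for Pnrc1 (siRNA 1 replicate 1 or 4, siRNA 2 replicate 1), 0.146 for Hk1 (siRNA 1 replicate 3 or 4, siRNA 2 replicate 1, 2 or 4), 0.144 for Pfkl (siRNA 1 replicate 1, 2 or 3, siRNA 2 replicate 1, 3 or 4) and 0.116 for Slc2a8 (siRNA 1 replicate 1, 2 or 3, siRNA 2 replicate 1, 2 or 4). Genes named by that rule were chosen on the comparisons with control, which use the same siRNA libraries. Another 8 genes of the lists differed here, picked after their values were seen. Lower with siRNA 2 were Ldhb (-0.23, adjusted p = 0.00535), the histone demethylase Kdm4b (-0.32, adjusted p = 0.0124), Esrrb (-0.21, adjusted p = 0.0312) and Pax6 (-0.68, adjusted p = 0.000312). Higher were Tfrc (0.26, adjusted p = 4.05e-05), Krt8 (0.38, adjusted p = 0.0139), Col1a1 (0.76, adjusted p = 2.05e-05) and Dcn (0.99, adjusted p = 0.00395). The calls of Ldhb, Pax6, Tfrc, Col1a1 and Dcn held with DESeq2 and with each library left out. Those of Esrrb and Krt8 were lost with DESeq2 (0.0752 and 0.0545). With libraries left out the adjusted p reached 0.123 for Esrrb (lost without siRNA 1 replicate 2, 3 or 4, siRNA 2 replicate 1 or 2), 0.0584 for Krt8 (siRNA 1 replicate 1 or 2) and 0.0897 for Kdm4b (siRNA 1 replicate 1, siRNA 2 replicate 1). Hk1 passed the test against control with neither siRNA, lying at 0.17 with siRNA 1 and -0.09 with siRNA 2.

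Eno1 in siRNA 1 replicate 2, at 491 CPM, stood apart from the other 3 libraries of its group, which had 470.3 to 473 CPM. It was 1 of 68 groups of 4 libraries examined, and chance gives such a sample in about 1 in 20 groups. The cause of these differences was not tested.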

How the results depend on the processing

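Of 196 estimates of the 10 genes under alternatives that keep all libraries, 184 kept their direction and their side of the threshold, 1 lost its call, 6 gained one and 5 changed sign. Over the 390 such estimates of the other named genes these numbers were 366, 19, 0 and 5. The 10 that changed sign had not passed the test: Slc2a1 with siRNA 2 was -0.00373 with TMM factors and -0.00784 with DESeq2, Pdk1 with siRNA 1 was -0.00709 with TMM factors, -0.0108 with DESeq2 and -0.00076 with the replicate block, and with siRNA 2 Pgam1 was -0.00401 with DESeq2, Egln1 -0.0109 and -0.0142, and Vhl -0.0136 and -0.0154 with TMM factors and DESeq2.

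DESeq2 called fewer genes in all, 450 (751 by edgeR) with siRNA 1, 874 (1562) with siRNA 2, 660 (1110) for the mean of both and 674 (1196) for siRNA 2 against siRNA 1. It called 4 of the 10 genes with siRNA 2, adding Gapdh and Pkm. In siRNA 2 against siRNA 1, 1 of the 10 genes (Slc2a3) was called with TMM factors, with the 5 CPM filter, with the replicate block and with library sizes without Gm26917. Of all calls, 42.1% and 36.6% were lower with siRNA 1 and siRNA 2, against 53.6% and 50.2% with TMM factors and 62.2% and 55.4% with DESeq2. The cause of these shifts was not tested.

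Replicate numbers did not pair the libraries: deviations from the group mean correlated at 0.0096 on average for same-numbered libraries (10 pairs, -0.0574 to 0.0616) and at -0.0032 for others. With the number as a block, 840, 1486, 1144 and 1242 genes were called in the 4 comparisons, and 0 of the 10 genes with siRNA 1 (the Pgk1 call was lost at -0.17 on the log2 scale, adjusted p = 0.0873) and 2 with siRNA 2.

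With 1 library left out, genes called ranged from 355 to 852 with siRNA 1, 807 to 1658 with siRNA 2, 499 to 1223 for the mean of both and 724 to 1365 between the siRNAs, and the genes called of the 10 from 0 to 1, 2 to 3, 1 to 2 and 0 to 2. The genes called moved by more than 1.5 times with siRNA 1 without control replicate 2 (355) or 3 (450) or siRNA 1 replicate 2 (425), with siRNA 2 without control replicate 2 (916) or 3 (807) or siRNA 2 replicate 1 (1007), for the mean of both without control replicate 2 (499) or 3 (512), and between the siRNAs without siRNA 1 replicate 1 (737) or 2 (724) or siRNA 2 replicate 1 (751). Without siRNA 2 replicate 3, Hk2 and Slc2a3 were called between the siRNAs. Log2 fold changes that changed sign ranged, with siRNA 2, from -0.0284 to 0.0865 for Slc2a1, -0.0658 to 0.0214 for Hk2, -0.0732 to 0.0120 for Ldha, -0.284 to 0.0836 for Bnip3, -0.0218 to 0.0771 for Pgam1, -0.0147 to 0.0666 for Arnt, -0.0496 to 0.0836 for Egln1 and -0.0970 to 0.104 for Vhl. With siRNA 1 they ranged from -0.0377 to 0.0473 for Pdk1, -0.168 to 0.199 for Bnip3, -0.00413 to 0.0947 for Pgam1 and -0.0509 to 0.150 for Vhl.

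With 3 control libraries every comparison with control rests on few samples, a two-sided exact permutation test of 3 against 4 could not go below 0.0571, and Bnip3 had the fewest reads and the widest intervals of the 10 genes. exactTest gave no value for the mean of both siRNAs, and a fit of the groups compared is the same fit there.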
